A study of Mus musculus with 8 samples.

Results

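Hypoxia-induced target genes are described here across T cells of the inflamed kidney and the spleen of lupus-prone mice. The list holds 37 genes that the hypoxia-inducible factor HIF-1 is known to switch on, with the enzymes of glycolysis left out. Of the 37 genes, 36 are in the deposited table of 13341 genes, and P4ha2 is analysed here only in the promoter counts. Of the 36, 33 reached the minimum level for the test, and Vegfa, Zfp395 and Ddit4 did not. MRL/lpr mice, which all carry the lpr mutation of the death receptor gene Fas and develop a lupus-like disease, were 14 weeks old in every group. The 4 groups were CD4+ T cells from kidney, CD8+ T cells from kidney, CD4+ T cells from spleen and CD8+ T cells from spleen, all sorted for high surface CD44, with 2 libraries each (n = 2 throughout). No group of another strain, age or treatment was compared. The labels do not say whether replicates came from separate mice, so p-values measure the spread between these libraries, which may be technical.

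HIF-1 is a pair of proteins whose alpha subunit is made all the time and destroyed as long as oxygen lets prolyl hydroxylases mark it. When oxygen is short the alpha subunit stays, joins its partner ARNT and binds the letters ACGTG or GCGTG in target genes. In T cells the same factor is also raised by receptor signals and cytokines at normal oxygen. Its targets slow mitochondrial respiration, remove mitochondria, store glycogen and lipid, call in blood vessels and feed back on growth signals.

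Depth ranged from 7477544 to 11169003 whole reads per library, and 1 read was worth a level of 0.554 to 1.04. A level is the deposited normalised signal of a gene in a library. Kidney CD4+ replicates were unlike, with an SD of the log2 difference between replicates of 1.56 over 4691 well expressed genes, against 0.435 to 0.650 in the other groups, and over 17 well expressed members it was 1.53. In kidney CD4+ replicate 2, 234 of those genes lay over 2 log2 units below every other library, against 0 to 18 in any other. T cell markers summed to a level of 92344 to 146373 in the 8 libraries. Several sets of non-T-cell markers differed between organs. The sum of 20 proximal tubule markers, led by Gpx3 and Miox, was 6366 to 24754 in kidney and 88.2 to 543 in spleen, where 16 of the 20 had 0 reads. Distal nephron markers were led by Fxyd2 and Umod. They summed to 1023 and 9790 in kidney CD4+ cells, 1759 and 4735 in kidney CD8+ cells and at most 20.1 in spleen. Macrophage markers, led by Lyz2 and C1qb, summed to 7298 and 7371 in kidney CD4+ cells, 2524 and 1951 in kidney CD8+ cells and 850 to 2308 in spleen. Dendritic cell markers were led by Cd74 and H2-Aa. Those summed to 26403 and 14899 in kidney CD4+ cells, 5815 and 3655 in kidney CD8+ cells and 2318 to 5664 in spleen. Neutrophil markers, led by Ngp and S100a9, summed to 3770 to 9729 in spleen and 0.849 to 62.0 in kidney, and erythroid markers, led by Hba-a1 and Hbb-b1, to 13524 to 25596 and 13.6 to 424. Of fibroblast, mesangial cell and podocyte markers 4 of 9 were in the table, with a sum of at most 17.7. In bulk samples fewer cells of a type and less RNA per cell cannot be told apart.

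Kidney T cell libraries had higher levels of 5 hypoxia-induced genes than spleen libraries over both lineages, 0 members fell, and the other 28 tested members did not pass. Of the 5, Ndrg1, Hilpda and Mxi1 have a spleen level. Ak4 and Selenbp1 were near 0 in spleen and passed the minimum level through kidney, so that they had to differ and add nothing to the count. Calls were made with limma, at a Benjamini-Hochberg adjusted p under 0.05 over the 10845 genes tested. Of all genes tested 2.71% were called higher and 0.664% lower in that comparison. The median log2 fold change was 0.26 over the 33 members and -0.06 over all genes. In CD4+ cells alone 4 members rose, Ndrg1, Ak4, Mxi1 and Hilpda, and 0 fell, against 0.802% of all genes called higher and 0.157% lower. In CD8+ cells alone 4 rose, Ndrg1, Selenbp1, Ak4 and Hilpda, and 0 fell, against 1.21% and 0.341%. Both counts include members near 0 in spleen, which had to differ. Of the 28 members that averaged at least 10 in spleen, 3 rose in CD4+ cells and 2 in CD8+ cells, and 0 fell in either. Kidney libraries did not overlap spleen libraries and were higher for 10 members in CD4+ cells and 14 in CD8+ cells (16.3% and 26.7% of all genes), and lower for 6 and 7 (15.6% and 24.4%). Those counts include members near 0 in spleen. Over the 28 members that averaged at least 10 in spleen, 7 and 12 were higher and 6 and 7 lower. The 5 calls over both lineages held in each of 17 alternatives, among them the omission of any 1 library. The calls within a lineage did not. In CD4+ cells the 4 called members became 0 with the compared libraries alone, 1 with library weights and 1 with the replicate number as a block. Fewer of the 4 were called when any 1 kidney CD8+, spleen CD4+ or spleen CD8+ library was left out. Without kidney CD4+ replicate 1 members were gained in both directions. Jmjd6 (-1.68), Nrn1 (-3.44) and P4ha1 (-2.42) were then lower in kidney on the log2 scale. Higd1a, Mif and Selenbp1 were gained as higher. In CD8+ cells the 4 became 3 with the compared libraries alone (Selenbp1 was lost), 2 with edgeR, 7 without either kidney CD4+ library, 2 without either spleen CD4+ library, 1 without kidney CD8+ or spleen CD8+ replicate 1 and 0 without kidney CD8+ or spleen CD8+ replicate 2. Over both lineages other members joined the 5 without kidney CD4+ replicate 1 or 2. Without replicate 1 these were Higd1a and Rbpj, which were higher, and Jmjd6 (-1.18) and P4ha1 (-1.93), which were lower. Without replicate 2 they were Bnip3, Nrn1 and Rbpj, all higher.

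The members were split by their mean level over the 4 spleen libraries, since a member near 0 in spleen can pass the minimum level through kidney alone. Of the 36 members, 28 averaged at least 10 in spleen and 8 averaged less. The 8 were Ak4, Selenbp1, Plod2, Pfkfb4, Adm, Vegfa, Zfp395 and Ddit4. The members just inside were Gbe1 at 13.9 and Plod1 at 16.1, and just outside was Plod2 at 8.30. Of the 5 calls, Ndrg1, Hilpda and Mxi1 belong to the members with a spleen level and Ak4 and Selenbp1 to those near 0. Of the 28 members with a spleen level 3 rose, 0 fell and 25 did not pass over both lineages, and their median log2 fold change was 0.15. Of the 8 near 0, 5 were tested, and their count supports nothing.

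**Figure D1:**
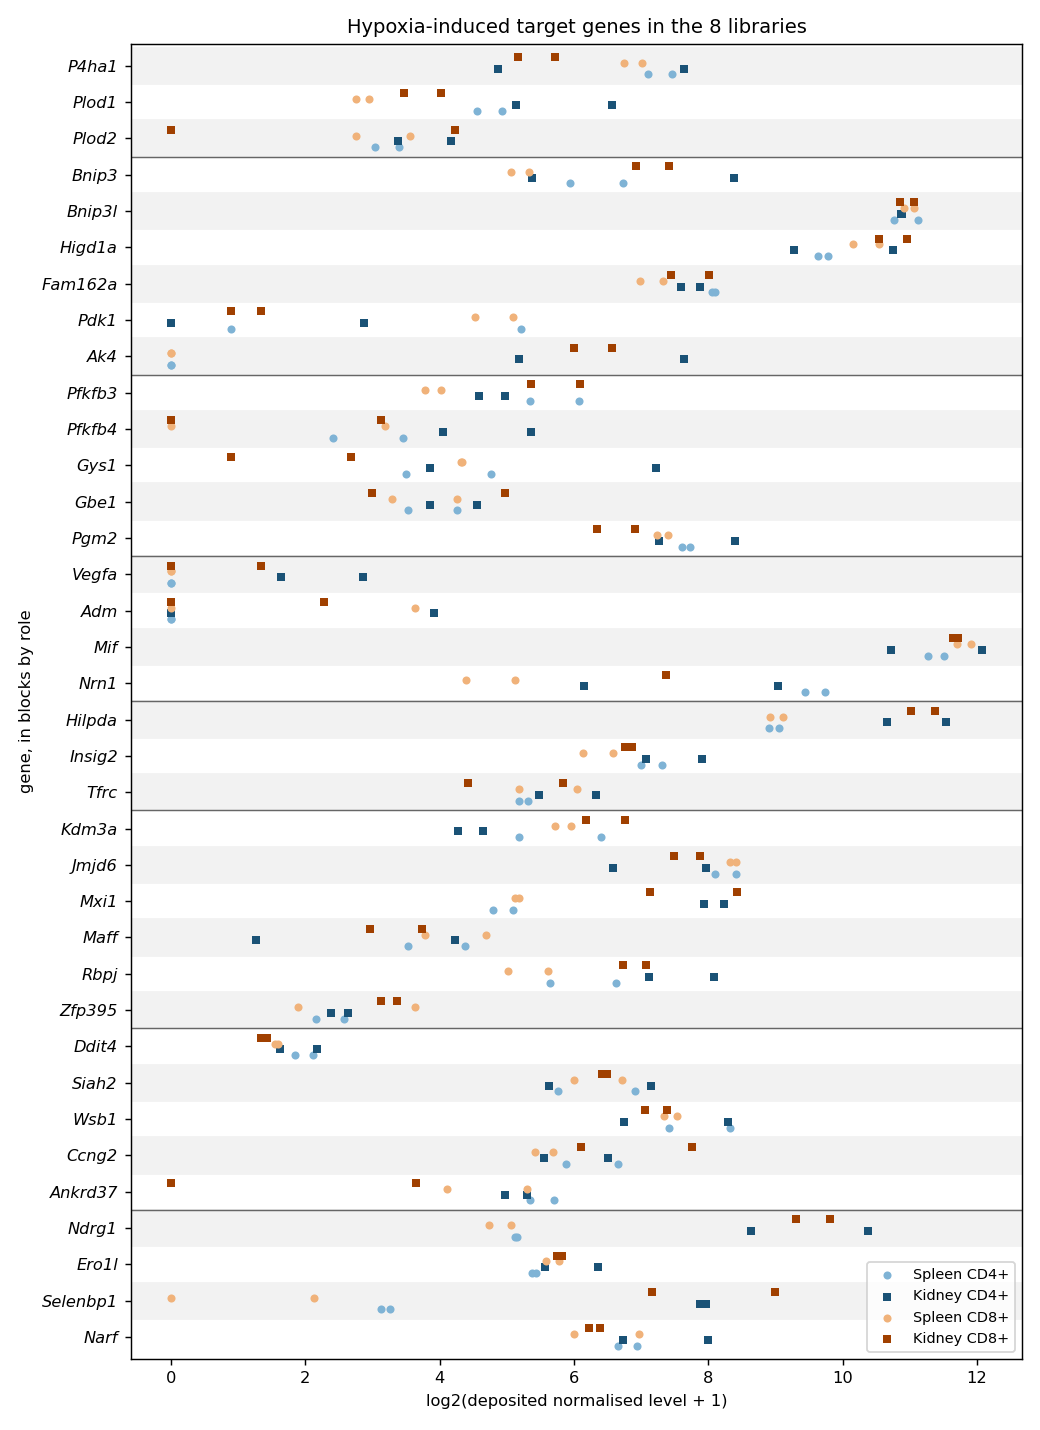
The log2 of level + 1 (x axis) of each of the 36 members in the table (y axis, in blocks by role) is plotted for the 8 libraries; circles are spleen, squares kidney, blue CD4+ and orange or brown CD8+. The squares of Ndrg1, Selenbp1, Ak4, Hilpda and Mxi1 all lie to the right of their circles, while those of Bnip3l, Mif and Wsb1 lie among them.

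Ndrg1 encodes a cytoplasmic protein of stress and differentiation that many cell types raise when oxygen is low. Its gene spans chr15:66760883-66801202 on the minus strand of mm9. The level was 398 and 1334 in kidney CD4+ replicates 1 and 2 and 630 and 900 in kidney CD8+ replicates, against 33.8 and 34.5 in spleen CD4+ and 25.6 and 32.5 in spleen CD8+ libraries. Every kidney library was above every spleen library, and the 4 spleen libraries lay close together. Ndrg1 was higher in kidney by a log2 fold change of 4.52 ± 0.41 SE over both lineages (limma adjusted p = 8.24e-04), 4.38 ± 0.58 in CD4+ cells (adjusted p = 0.0139) and 4.66 ± 0.58 in CD8+ cells (adjusted p = 0.00890). In CD4+ cells the call was lost with the compared libraries alone and without either spleen CD4+ library, and in CD8+ cells without any 1 of the 4 CD8+ libraries. Its kidney levels were 3.64% to 9.89% of the proximal tubule marker sum of the same library. The libraries with the higher tubule sum of each kidney pair, CD4+ replicate 2 at 21136 and CD8+ replicate 2 at 24754, also had the higher Ndrg1 level of that pair. Across all 4 kidney libraries the order by Ndrg1 level was not that of the proximal tubule sum. The lowest sum, 6366, was in CD8+ replicate 1 and the lowest Ndrg1 level in CD4+ replicate 1. It was the order of the distal nephron marker sum, which the levels of Hilpda, Mxi1, Ak4 and Selenbp1 did not follow.

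Hilpda encodes a small protein of lipid droplets that blocks the lipase ATGL, so that lipid is kept. Its gene is at chr6:29222488-29225446 on the plus strand of mm9, under the older name 2310016C08Rik. It had levels of 1627 and 2975 in kidney CD4+ and 2660 and 2066 in kidney CD8+ libraries, against 531 and 481 in spleen CD4+ and 550 and 482 in spleen CD8+ libraries. The lowest kidney library stood above the highest spleen library. Hilpda was higher in kidney by 2.15 ± 0.27 on the log2 scale over both lineages (adjusted p = 0.00363), by 2.12 ± 0.38 in CD4+ cells (adjusted p = 0.0474) and by 2.18 ± 0.38 in CD8+ cells (adjusted p = 0.0320). Within CD4+ cells 13 of 18 alternatives lost the call, and within CD8+ cells 9 of 18 did. Per kilobase of its longest annotated transcript Hilpda had a mean level of 520 in spleen and 2375 in kidney, behind Mif (5681), Bnip3l (616) and Higd1a (574) among members in spleen. Its kidney levels were 8.35% to 41.8% of the proximal tubule marker sum.

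Mxi1 encodes a partner of MAX that opposes MYC at its target genes. The gene spans chr19:53384996-53450300 on the plus strand of mm9. Levels were 299 and 243 in kidney CD4+ and 344 and 139 in kidney CD8+ libraries, against 33.3 and 26.7 in spleen CD4+ and 33.7 and 35.3 in spleen CD8+ libraries. The lowest kidney level, in CD8+ replicate 2, was still above every spleen level. Mxi1 was higher in kidney by 2.88 ± 0.38 on the log2 scale over both lineages (adjusted p = 0.00473) and by 3.13 ± 0.54 in CD4+ cells (adjusted p = 0.0369), and in CD8+ cells the difference was 2.63 ± 0.54 (adjusted p = 0.0615). In CD4+ cells 7 of 18 alternatives lost the call, and in CD8+ cells 3 of 18 reached it. The library with the highest tubule marker sum, kidney CD8+ replicate 2 at 24754, had the lowest Mxi1 level of the 4 kidney libraries, and the library with the lowest sum, kidney CD8+ replicate 1 at 6366, had the highest.

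Ak4 and Selenbp1 were the called members near 0 in spleen. Ak4 encodes an adenylate kinase of the mitochondrial matrix (chr4:101091882-101140376, plus strand, mm9). It had 0 reads in all 4 spleen libraries and levels of 35.2 and 198 in kidney CD4+ and 93.4 and 63.2 in kidney CD8+ libraries. On the log2 scale of level + 1 Ak4 was higher in kidney by 6.41 ± 1.02 in CD4+ cells (limma adjusted p = 0.0284). In CD8+ cells it was higher by 6.28 ± 1.02 (adjusted p = 0.0254). Against a floor of 3 reads over both spleen libraries of a lineage it was at least 110-fold higher in CD4+ and 64.1-fold in CD8+ cells. That bound covers counting error only and is not what the p-values test. Over both lineages the log2 difference of Ak4 was 6.34 ± 0.72 (adjusted p = 0.00248). Within CD4+ cells 10 of 18 alternatives lost the call and within CD8+ cells 7 of 18 did.

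Selenbp1 encodes a selenium-binding protein that oxidises methanethiol (chr3:94736978-94748680, plus strand, mm9). It had levels of 233 and 249 in kidney CD4+ and 143 and 511 in kidney CD8+ libraries, against 7.76 and 8.63 in spleen CD4+ and 3.37 and 0 in spleen CD8+ libraries. The spleen CD4+ libraries had few reads, and those of spleen CD8+ cells fewer still. Selenbp1 was higher in kidney over both lineages by 5.87 ± 0.63 on the log2 scale (adjusted p = 0.00187) and in CD8+ cells by 7.02 ± 0.89 (adjusted p = 0.00918). In CD4+ cells the difference was 4.72 ± 0.89 (adjusted p = 0.0563), and 4 of 18 alternatives reached the threshold. In CD8+ cells the call was lost with the compared libraries alone and without kidney CD8+ replicate 2 or spleen CD8+ replicate 2. Its levels were 1.18% to 2.54% of the proximal tubule marker sum in the 4 kidney libraries, and those of Ak4 were 0.255% to 1.47%. Its highest level was in the library with the highest tubule marker sum and its lowest in that with the lowest sum. The part of proximal tubule, distal nephron, macrophage and dendritic cell RNA in the values of these 5 members was not tested.

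**Figure D2:**
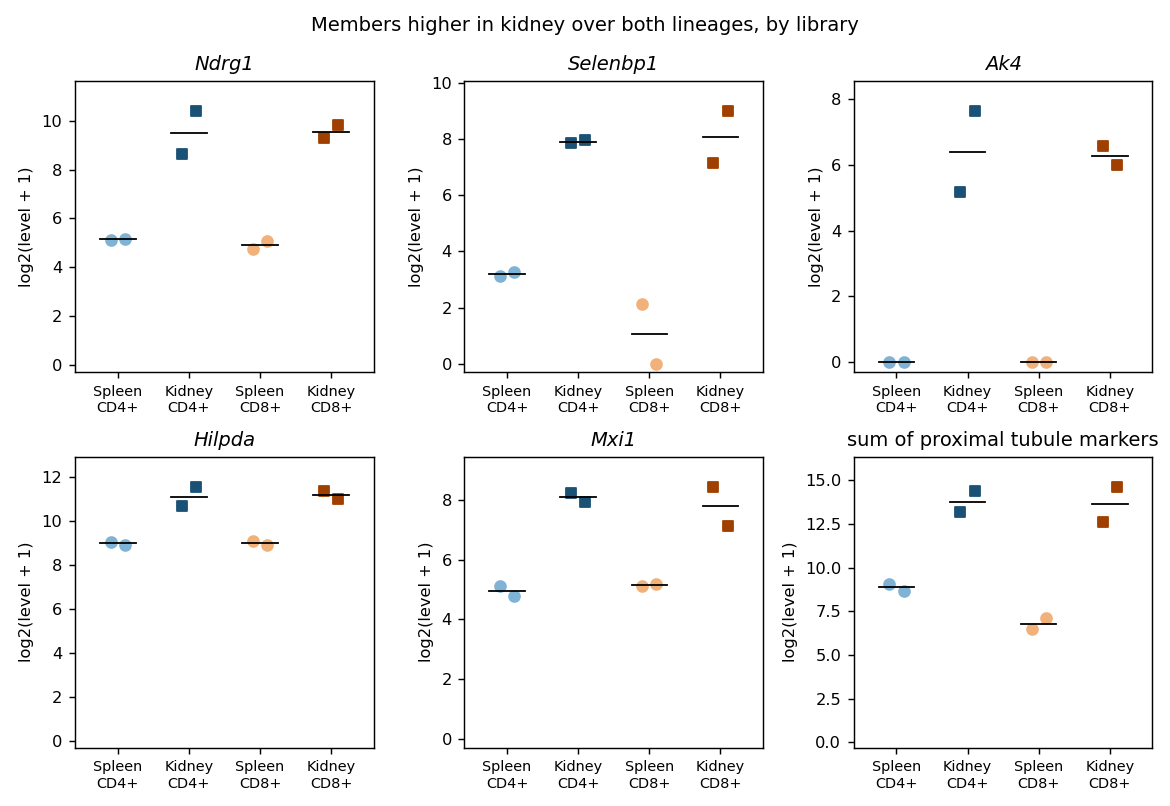
Panels show the log2 of level + 1 (y axis) of the 5 called members and of the summed proximal tubule markers in the 4 groups (x axis); points are libraries and bars the mean of 2 libraries. In each panel the 4 kidney libraries lie above the 4 spleen libraries, and Ak4 is at 0 in every spleen library.

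Promoter sequences are shown for the 4 called members with an entry in the RefSeq promoter table, and the letters that HIF-1 binds are marked. They are RefSeq sequences of build GRCm38.p6, which is not the mm9 build of the gene positions above. Each runs from 250 bases before to 50 bases after an annotated start, on the strand of the gene, and for a gene with several starts the entry with the most matches is shown (the first of equals). Capitals mark ACGTG or GCGTG on either strand, so CACGT and CACGC are capitals too, and matches may overlap. The 4 entries are chr6:29272376-29272675 for Hilpda, chr4:101419453-101419752 for Ak4, chr19:53329163-53329462 for Mxi1 and chr3:94932833-94933132 for Selenbp1, all on the plus strand.
Hilpda: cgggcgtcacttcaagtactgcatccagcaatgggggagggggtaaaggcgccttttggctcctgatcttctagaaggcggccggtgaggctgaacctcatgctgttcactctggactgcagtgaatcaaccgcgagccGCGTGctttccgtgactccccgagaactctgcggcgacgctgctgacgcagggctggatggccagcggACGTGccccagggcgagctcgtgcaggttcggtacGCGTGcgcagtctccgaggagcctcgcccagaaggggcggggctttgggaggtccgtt
Ak4: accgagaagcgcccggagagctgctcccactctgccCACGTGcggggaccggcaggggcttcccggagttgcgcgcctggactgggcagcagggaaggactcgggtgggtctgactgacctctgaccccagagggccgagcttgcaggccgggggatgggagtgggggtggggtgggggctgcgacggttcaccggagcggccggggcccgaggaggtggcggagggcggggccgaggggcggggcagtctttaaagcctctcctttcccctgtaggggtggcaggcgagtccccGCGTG
Mxi1: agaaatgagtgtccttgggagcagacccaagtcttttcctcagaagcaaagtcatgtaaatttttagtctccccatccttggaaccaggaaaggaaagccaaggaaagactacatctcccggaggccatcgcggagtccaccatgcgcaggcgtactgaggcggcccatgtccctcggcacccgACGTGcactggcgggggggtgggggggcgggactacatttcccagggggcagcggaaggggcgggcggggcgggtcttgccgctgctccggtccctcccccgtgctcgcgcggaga
Selenbp1: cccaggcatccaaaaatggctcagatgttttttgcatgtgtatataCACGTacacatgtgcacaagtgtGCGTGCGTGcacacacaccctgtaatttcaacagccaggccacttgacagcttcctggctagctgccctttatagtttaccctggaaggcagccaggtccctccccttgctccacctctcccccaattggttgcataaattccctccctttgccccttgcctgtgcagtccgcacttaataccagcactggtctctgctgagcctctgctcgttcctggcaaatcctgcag

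Hilpda had 1 match to ACGTG and 2 to GCGTG in this window, Ak4 2 and 1, Mxi1 1 and 0, and Selenbp1 1 and 2. The 2 ACGTG matches of Ak4 overlap in the palindrome CACGTG, read on opposite strands. Of the members, 30 had an entry in the RefSeq promoter table, Ero1l under its newer name Ero1a. Entries were not found for Plod2, Bnip3l, Nrn1, Zfp395, Siah2 and Ndrg1, and Pgm2 was not looked up because that symbol has been used for 2 mouse phosphoglucomutase genes. Of these 30 members, 28 held either motif in at least 1 of their promoters (93.3%). The 30 include P4ha2 and members below the minimum level. Of the 27 tested members with an entry 25 held a motif (92.6%), and of 8388 genes tested in the table that had an entry 67.6% did. Counted by promoter, 77.1% of 48 member promoters and 62.0% of 10644 promoters of tested genes held a match, and 43.8% of all 32851 promoters in the table. The shares are descriptions, a match is not a bound site, and members have more listed starts per gene.

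Genes of mitochondria and of their removal did not pass in either lineage apart from Ak4. Bnip3l, also called NIX, marks mitochondria for removal and is known for clearing them from maturing red cells. It had levels of 1899 and 1879 in kidney CD4+, 1860 and 2150 in kidney CD8+, 1739 and 2226 in spleen CD4+ and 1925 and 2135 in spleen CD8+ libraries. The 8 libraries overlapped fully, and the log2 fold change over both lineages was -0.04 ± 0.23 with an unadjusted 95% interval from -0.56 to 0.48 (adjusted p = 0.953). Between lineages Bnip3l differed by 0.08 ± 0.32 in kidney and 0.04 ± 0.32 in spleen. Erythroid marker sums were far higher in spleen, and their part in its level was not tested. Its relative Bnip3 had levels of 333 and 40.6 in kidney CD4+, 121 and 170 in kidney CD8+, 105 and 60.4 in spleen CD4+ and 39.1 and 32.5 in spleen CD8+ libraries. The kidney and spleen libraries of CD8+ cells did not overlap for Bnip3, with a log2 fold change of 1.98 ± 0.88 (adjusted p = 0.482). Without kidney CD4+ replicate 1 or 2 that difference was called in CD8+ cells (adjusted p = 0.0359 and 0.0271). Over both lineages Bnip3 stood at 1.26 ± 0.62 (adjusted p = 0.416), and without kidney CD4+ replicate 2 it was 2.01 and called (adjusted p = 0.00788). Per kilobase Bnip3l had a mean level of 616 in spleen and 597 in kidney, and Bnip3 33.7 and 94.4.

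Higd1a, a protein of the inner mitochondrial membrane that sustains the respiratory chain at low oxygen, had levels of 621 and 1715 in kidney CD4+, 1996 and 1484 in kidney CD8+, 791 and 878 in spleen CD4+ and 1491 and 1138 in spleen CD8+ libraries. Kidney CD4+ replicate 1 was the lowest of the 8 libraries and the organs overlapped, and the log2 fold change over both lineages was 0.35 ± 0.35 (adjusted p = 0.679). Without that library it was 0.72 and called (adjusted p = 0.0109). Fam162a, a mitochondrial protein of cell death, had levels of 193 and 233 in kidney CD4+, 258 and 173 in kidney CD8+, 265 and 273 in spleen CD4+ and 160 and 125 in spleen CD8+ libraries. It was highest in spleen CD4+ and lowest in spleen CD8+ cells, with every kidney library between them. Pdk1, which holds pyruvate out of the mitochondrion by blocking pyruvate dehydrogenase, had levels of 6.34 and 0 in kidney CD4+, 0.849 and 1.54 in kidney CD8+, 36 and 0.863 in spleen CD4+ and 33 and 22 in spleen CD8+ libraries. All 4 kidney libraries and spleen CD4+ replicate 2 were low, so the organs overlapped. Its log2 fold change was -3.69 ± 1.57 in CD8+ cells (adjusted p = 0.454) and -2.65 ± 1.11 over both lineages (adjusted p = 0.324), the largest negative value of any member in both comparisons.

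Members of glucose and glycogen use were not called. Pfkfb3 and Pfkfb4 make the activator of phosphofructokinase, the pace-setting step of glycolysis. Pfkfb3 had levels of 30.3 and 22.9 in kidney CD4+, 67.1 and 40.1 in kidney CD8+, 66.5 and 39.7 in spleen CD4+ and 12.8 and 15.3 in spleen CD8+ libraries. Kidney lay below spleen in CD4+ cells and above it in CD8+ cells, without overlap in either lineage. The log2 fold changes were -0.94 ± 0.63 (adjusted p = 0.735) and 1.82 ± 0.63 (adjusted p = 0.313), and their difference was 2.76 ± 0.90 (unadjusted p = 0.0142, adjusted p = 0.999). Within spleen CD8+ minus CD4+ was -1.81 ± 0.63 for Pfkfb3 (adjusted p = 0.504). Pfkfb4 had levels of 40.2 and 15.6 in kidney CD4+, 0 and 7.71 in kidney CD8+, 9.98 and 4.31 in spleen CD4+ and 8.08 and 0 in spleen CD8+ libraries. Kidney CD4+ cells were the highest group, with a log2 fold change of 1.78 ± 1.46 in CD4+ cells (adjusted p = 0.792), -0.03 ± 1.46 in CD8+ cells and 0.87 ± 1.04 over both (adjusted p = 0.741).

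Gys1 encodes glycogen synthase of muscle type. It had levels of 148 and 13.5 in kidney CD4+, 0.849 and 5.40 in kidney CD8+, 26 and 10.4 in spleen CD4+ and 18.9 and 19.1 in spleen CD8+ libraries. Kidney CD8+ cells were the lowest group and the kidney CD4+ libraries were 1 high and 1 low. Between the lineages of the kidney the log2 difference, CD8+ minus CD4+, was -3.76 ± 1.20 (adjusted p = 0.402), and it was called without kidney CD4+ replicate 2 alone among the alternatives (-5.44, adjusted p = 0.0170). Gbe1, the glycogen branching enzyme, had levels of 22.6 and 13.5 in kidney CD4+, 30.6 and 6.94 in kidney CD8+, 10.5 and 18.1 in spleen CD4+ and 8.75 and 18.1 in spleen CD8+ libraries. No group of Gbe1 stood apart from the others. Pgm2, a phosphoglucomutase that links glucose to glycogen, had levels of 335 and 153 in kidney CD4+, 79.8 and 119 in kidney CD8+, 210 and 193 in spleen CD4+ and 150 and 168 in spleen CD8+ libraries. Kidney CD8+ libraries were the lowest, below both kidney CD4+ and all spleen libraries.

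Of the secreted factors 0 were called in an organ comparison. Vegfa, the growth factor of blood vessels and a classical HIF target, had 0 reads in all 4 spleen libraries and levels of 2.11 and 6.24 in kidney CD4+ and 0 and 1.54 in kidney CD8+ libraries. This was 9 reads in kidney CD4+ and 2 in kidney CD8+ libraries, too few for the test. Adm, a peptide that widens vessels, had levels of 14.1 in kidney CD4+ replicate 1, 11.5 in spleen CD8+ replicate 2, 3.85 in kidney CD8+ replicate 2 and 0 in the other 5 libraries. Mif, an inflammatory cytokine stored in most cells, had levels of 1695 and 4314 in kidney CD4+, 3211 and 3364 in kidney CD8+, 2472 and 2916 in spleen CD4+ and 3858 and 3344 in spleen CD8+ libraries. The organs overlapped, and Mif differed by -0.06 ± 0.32 on the log2 scale over both lineages with an unadjusted 95% interval from -0.80 to 0.68 (adjusted p = 0.951). Within CD4+ and CD8+ cells its organ differences were 0.01 ± 0.46 and -0.13 ± 0.46. Between lineages, CD8+ minus CD4+ was 0.28 ± 0.46 in kidney and 0.42 ± 0.46 in spleen, neither called. The 2 kidney CD4+ libraries were the lowest and the highest of the 8 for Mif, and its differences depended on them. Without replicate 1 the organ difference in CD4+ cells was 0.68, and without replicate 2 CD8+ minus CD4+ in kidney was 0.95.

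Nrn1 encodes neuritin, a surface protein of neurons that is also made by regulatory and anergic CD4+ T cells. Its levels were 850 and 691 in spleen CD4+ libraries and 33.7 and 20.1 in spleen CD8+ libraries. In kidney they were 525 and 69.7 in CD4+ and 165 and 164 in CD8+ libraries, so that the lineages stood apart in spleen and overlapped in kidney. Within spleen Nrn1 was lower in CD8+ cells by a log2 difference of -4.83 ± 0.82, which just missed the threshold (adjusted p = 0.0553). It was called in 7 of 18 alternatives, among them the 4 spleen libraries alone (adjusted p = 0.0356), and the adjusted p ranged from 1.1e-05 to 0.611. Kidney minus spleen was negative for Nrn1 in CD4+ cells (-1.99 ± 0.82, adjusted p = 0.492) and positive in CD8+ cells (2.61 ± 0.82, adjusted p = 0.236), neither past the threshold. The difference between these was 4.61 ± 1.16 (unadjusted p = 0.00359, adjusted p = 0.999), the smallest p of any member in that comparison. Without kidney CD4+ replicate 1 it was 6.05. Over the alternatives the organ difference of Nrn1 ran from -3.44 to -0.54 in CD4+ cells and from 2.25 to 2.97 in CD8+ cells. Among the alternatives that kept 2 libraries in each group, the one in CD8+ cells was called only by limma with library weights (adjusted p = 0.00647).

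Over the 33 members the organ difference in CD8+ cells minus that in CD4+ cells was called for 0 members, and for 0% of all genes, with limma and with edgeR. At an unadjusted p under 0.05 it was 3 members up, Nrn1, Pfkfb3 and Kdm3a, and 1 down, Gys1 (-3.95 ± 1.70, adjusted p = 0.999), against 3.34% of all genes. The 2 organ comparisons share no library. Across the 33 tested members, which are not independent replicates, their log2 fold changes correlated at Pearson r of 0.701 and Spearman rho of 0.410, and across all 10845 genes at 0.595 and 0.394. The sign was the same for 20 of the 33 members (60.6%) and for 63.8% of all genes. Pearson's r was 0.515 over the 28 members with a spleen level.

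**Figure D3:**
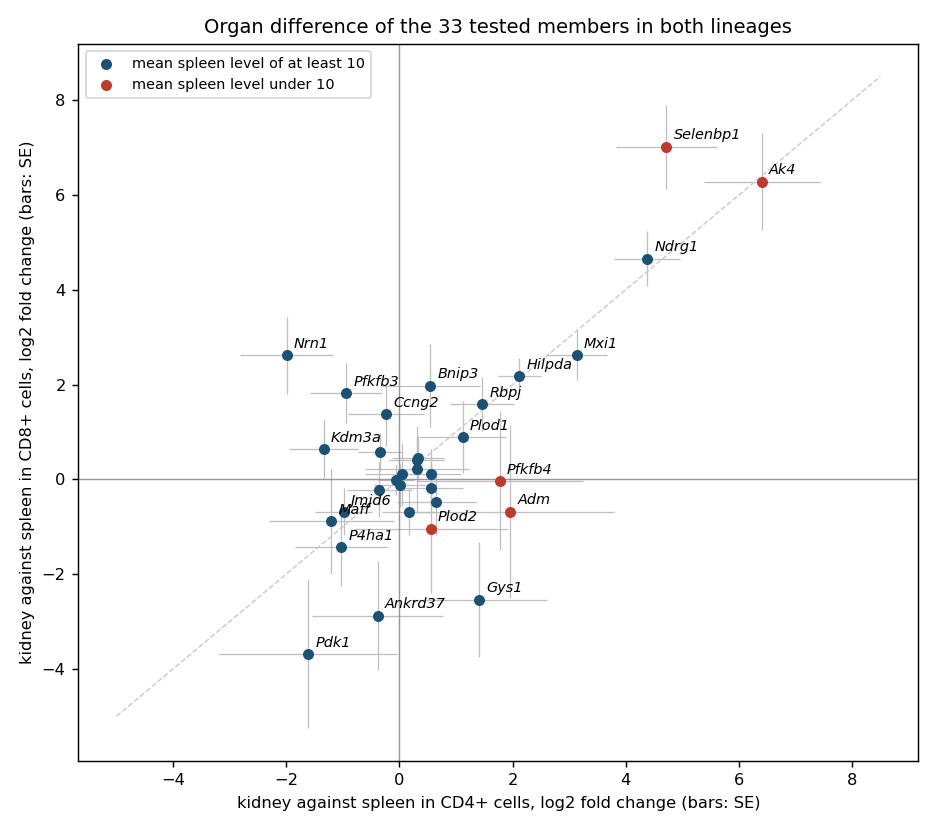
The log2 fold change of kidney against spleen in CD4+ cells (x axis) is set against that in CD8+ cells (y axis) for the 33 tested members; bars are SE, the dashed line marks equal values, and red points have a mean spleen level under 10. Selenbp1, Ak4, Ndrg1, Mxi1 and Hilpda lie to the upper right, and Nrn1 and Pfkfb3 lie where CD8+ values are above 0 and CD4+ values below.

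Members that act on chromatin and transcription varied in direction. Rbpj, the DNA-binding protein of the Notch pathway, had levels of 270 and 138 in kidney CD4+, 134 and 106 in kidney CD8+, 98.1 and 49.2 in spleen CD4+ and 47.8 and 31.5 in spleen CD8+ libraries. Every kidney library was above every spleen library, which held for 6 of the 33 members and 5.84% of all genes. Ak4 and Selenbp1, which had to differ, are among the 6, and it held for 4 of the 28 members with a spleen level. Rbpj differed by 1.53 ± 0.40 over both lineages (adjusted p = 0.102), by 1.46 ± 0.57 in CD4+ cells (adjusted p = 0.441) and by 1.59 ± 0.57 in CD8+ cells (adjusted p = 0.326). The value over both lineages passed without kidney CD4+ replicate 1 or replicate 2 (adjusted p = 0.0331 and 0.0218) and in none of the other 15 alternatives. Macrophage marker sums, like Rbpj, were highest in the 2 kidney CD4+ libraries, and their part in its values was not tested.

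Jmjd6, an oxygen-dependent hydroxylase and demethylase of the nucleus, had levels of 249 and 94.7 in kidney CD4+, 179 and 234 in kidney CD8+, 274 and 340 in spleen CD4+ and 341 and 320 in spleen CD8+ libraries. It was the 1 member whose kidney libraries all lay below its spleen libraries, as did those of 3.6% of all genes, with a log2 difference of -0.84 ± 0.35 over both lineages (adjusted p = 0.329), called only without kidney CD4+ replicate 1 (-1.18, adjusted p = 0.00314). Neutrophil and erythroid marker sums were also lower in every kidney library, and their part in the values of Jmjd6 was not tested. Kdm3a, a demethylase of histone H3, had levels of 18.3 and 23.9 in kidney CD4+, 108 and 71.7 in kidney CD8+, 83.7 and 35.4 in spleen CD4+ and 61.3 and 51.6 in spleen CD8+ libraries. Kidney CD4+ cells were below the other 6 libraries, and within kidney CD8+ minus CD4+ was 2.02 ± 0.61, the smallest p of any member there (adjusted p = 0.375). Within kidney 0 members were called, against 0.203% of all genes with limma, and edgeR also called 0. At an unadjusted p under 0.05, 1 member was higher in CD8+ cells and 4 were lower, against 8.51% of all genes in either direction. Those 4 were Gys1, Ankrd37 (-3.31 ± 1.15, adjusted p = 0.451), Plod1 and Pgm2 (-1.20 ± 0.48, adjusted p = 0.546). Maff, a small partner of NRF2 and of AP-1-like factors, had levels of 1.41 and 17.7 in kidney CD4+, 6.79 and 12.3 in kidney CD8+, 10.5 and 19.8 in spleen CD4+ and 12.8 and 24.8 in spleen CD8+ libraries. Its groups had low levels and overlapped apart from CD8+ cells, where both kidney libraries were just below both spleen libraries. Zfp395, a zinc finger protein, had levels of 4.23 and 5.2 in kidney CD4+, 9.34 and 7.71 in kidney CD8+, 4.99 and 3.45 in spleen CD4+ and 2.69 and 11.5 in spleen CD8+ libraries, too low for the test.

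Members that feed back on signals or direct protein turnover overlapped between organs over both lineages, and 0 were called. Ddit4, an inhibitor of the growth kinase mTORC1, stood at 1.54 to 3.52 in the 8 libraries, below the minimum for the test. Siah2, a ubiquitin ligase that removes prolyl hydroxylases, had levels of 48.6 and 140 in kidney CD4+, 84.9 and 89.4 in kidney CD8+, 119 and 53.5 in spleen CD4+ and 104 and 63 in spleen CD8+ libraries. Wsb1, a ubiquitin ligase adaptor, had levels of 312 and 106 in kidney CD4+, 132 and 167 in kidney CD8+, 321 and 169 in spleen CD4+ and 162 and 185 in spleen CD8+ libraries. In both lineages the organs overlapped for Siah2 and for Wsb1. Ccng2, an unusual cyclin of resting cells, had levels of 90.2 and 45.8 in kidney CD4+, 216 and 67.8 in kidney CD8+, 99.8 and 57.8 in spleen CD4+ and 41.7 and 50.6 in spleen CD8+ libraries. Its organs overlapped in CD4+ cells and not in CD8+ cells, where 1 kidney library stood far above the other. Ankrd37, an ankyrin repeat protein, had levels of 30.3 and 38.5 in kidney CD4+, 0 and 11.6 in kidney CD8+, 51.0 and 39.7 in spleen CD4+ and 38.4 and 16.2 in spleen CD8+ libraries. Kidney CD8+ cells had the lowest levels, and the organ difference there was -2.88 ± 1.15 (adjusted p = 0.412).

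**Figure D4:**
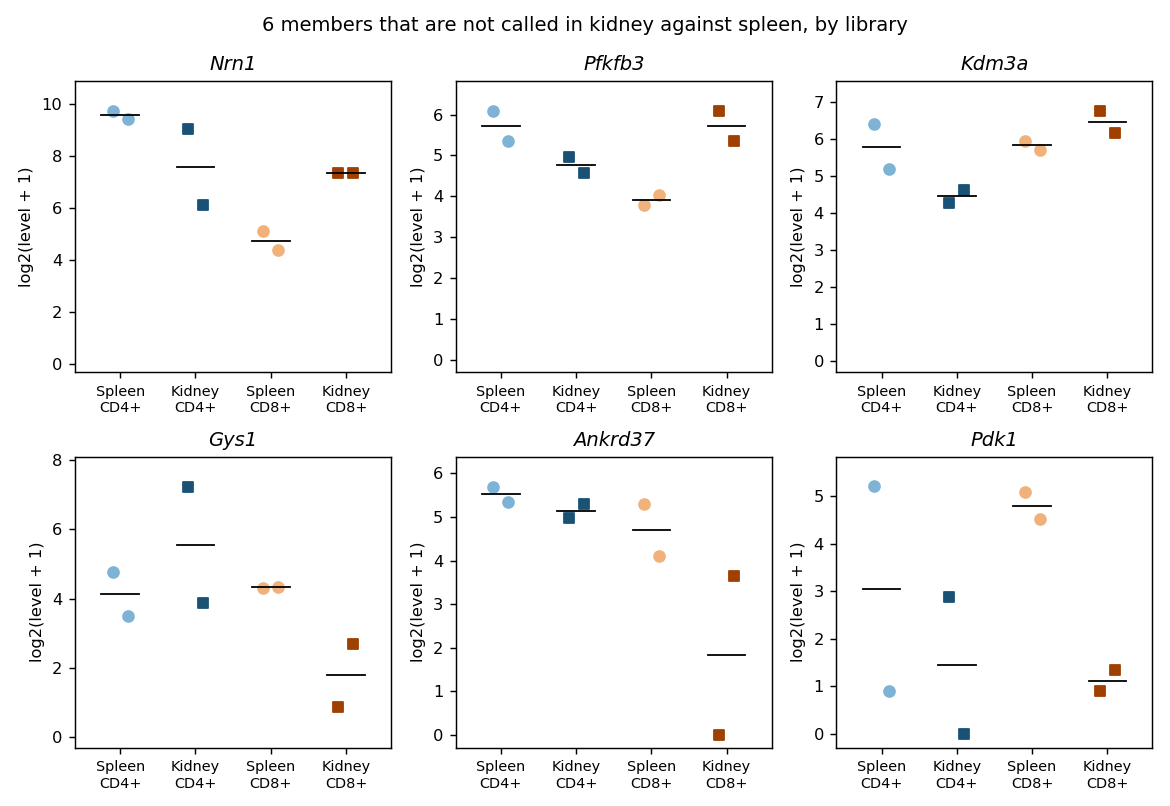
Panels show the log2 of level + 1 (y axis) of 6 members without a call in kidney against spleen, in the 4 groups (x axis); points are libraries and bars the mean of 2. Nrn1 stands apart between the spleen groups, Pfkfb3 lies lower in kidney than in spleen in CD4+ cells and higher in CD8+ cells, and the kidney CD4+ libraries of Nrn1 and Gys1 lie far apart.

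The collagen-modifying members need iron and oxygen for their own work. P4ha1, the catalytic subunit of prolyl 4-hydroxylase, had levels of 199 and 28.1 in kidney CD4+, 34.8 and 51.6 in kidney CD8+, 175 and 136 in spleen CD4+ and 106 and 128 in spleen CD8+ libraries. The kidney libraries were lower apart from kidney CD4+ replicate 1, which was the highest of all. Its log2 difference was -1.23 ± 0.58 over both lineages (adjusted p = 0.389), and it was called only without that library (-1.93, adjusted p = 0.00273). Plod1, a lysyl hydroxylase, had levels of 93.7 and 34.3 in kidney CD4+, 15.3 and 10 in kidney CD8+, 29.4 and 22.4 in spleen CD4+ and 6.73 and 5.73 in spleen CD8+ libraries. Kidney was above spleen without overlap within each lineage and CD4+ above CD8+ within each organ. The organ difference was 1 ± 0.54 (adjusted p = 0.456), and CD8+ minus CD4+ was -1.89 ± 0.77 in spleen (adjusted p = 0.699) and -2.11 ± 0.77 in kidney (adjusted p = 0.484). Plod2, its relative, had levels of 16.9 and 9.37 in kidney CD4+, 0 and 17.7 in kidney CD8+, 7.2 and 9.49 in spleen CD4+ and 10.8 and 5.73 in spleen CD8+ libraries. The organs overlapped, with a difference of -0.24 ± 0.96 (adjusted p = 0.930).

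Of the remaining members, Insig2, which holds back cholesterol synthesis, had levels of 134 and 238 in kidney CD4+, 107 and 116 in kidney CD8+, 127 and 157 in spleen CD4+ and 69.4 and 94.5 in spleen CD8+ libraries. Tfrc, the transferrin receptor of dividing and iron-hungry cells, had levels of 43.7 and 79.1 in kidney CD4+, 20.4 and 56.3 in kidney CD8+, 38.8 and 35.4 in spleen CD4+ and 65.3 and 35.3 in spleen CD8+ libraries. Insig2 did not overlap between organs in CD8+ cells nor Tfrc in CD4+ cells, kidney being higher, and both overlapped in the other lineage. Ero1l, the oxidase that forms disulfide bonds in the endoplasmic reticulum, had levels of 46.5 and 81.2 in kidney CD4+, 52.6 and 55.5 in kidney CD8+, 40.5 and 42.3 in spleen CD4+ and 53.9 and 46.8 in spleen CD8+ libraries. Kidney lay above spleen without overlap for Ero1l in CD4+ cells, and the organs overlapped in CD8+ cells. Narf, a nuclear protein that binds prelamin A, had levels of 255 and 105 in kidney CD4+, 73.8 and 82.5 in kidney CD8+, 122 and 100 in spleen CD4+ and 63.3 and 124 in spleen CD8+ libraries, with the organs overlapping. Over both lineages these 4 differed by 0.39, 0.08, 0.33 and 0.19 on the log2 scale, with adjusted p from 0.630 to 0.954. Between the lineages of the spleen 0 members were called by limma or by edgeR, against 0.36% of all genes. At an unadjusted p under 0.05 the 5 members Nrn1, Pfkfb3, Plod1, Selenbp1 and Fam162a were lower in CD8+ cells and 0 were higher, against 6.43% of all genes in either direction.

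**Figure D5:**
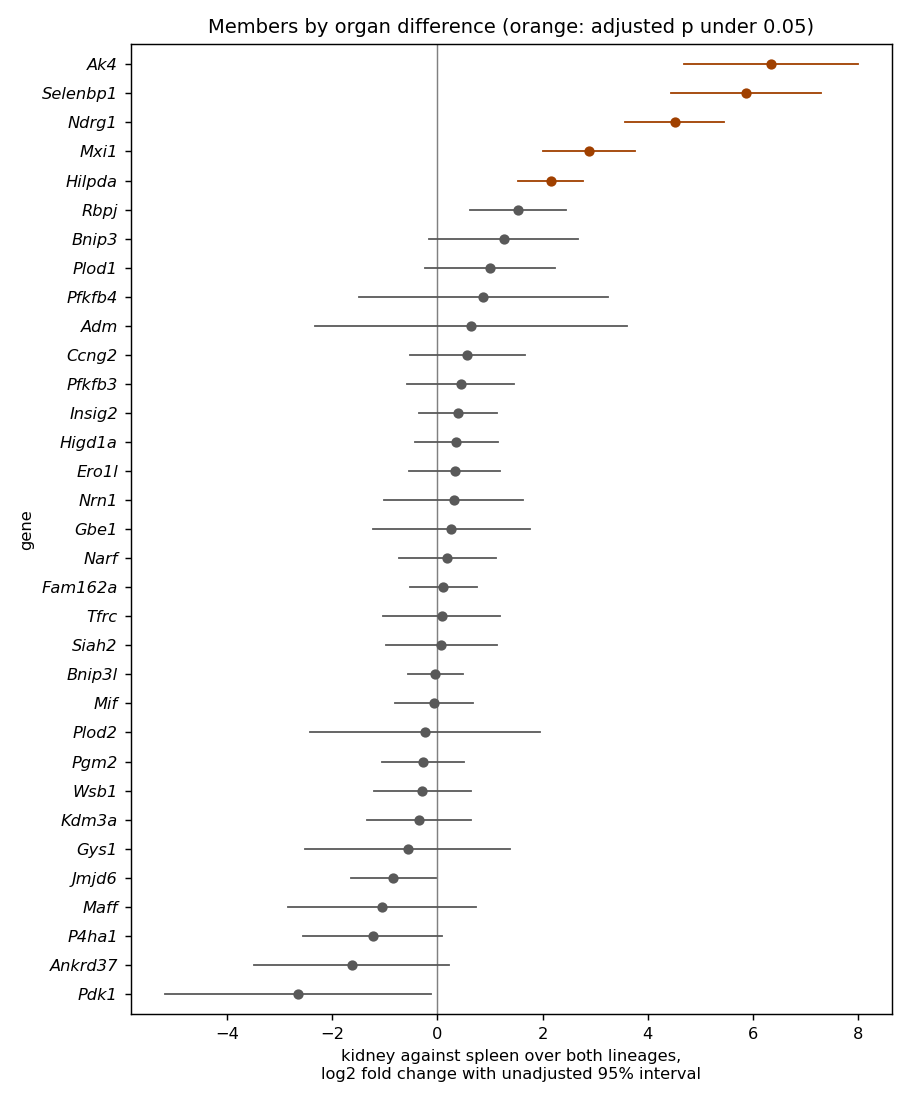
The log2 fold change of kidney against spleen over both lineages (x axis) is drawn for the 33 tested members (y axis) with its unadjusted 95% interval; orange marks an adjusted p under 0.05. Ak4, Selenbp1, Ndrg1, Mxi1 and Hilpda stand above 0, and of the other 28 members the intervals of Rbpj, Pdk1 and Jmjd6 leave out 0 without passing after adjustment and the remaining 25 cross 0.

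The factors and sensors upstream of these genes were not called. Of 17 listed HIF subunits, hydroxylases and cofactors 16 were tested, and 0 rose and 0 fell in any organ comparison. Of all genes 2.71% were called higher and 0.664% lower over both lineages, and fewer within a lineage. A count of 0 among 16 genes is near those shares. Hif1a, the oxygen-regulated subunit, had levels of 662 and 595 in kidney CD4+, 132 and 167 in kidney CD8+, 367 and 271 in spleen CD4+ and 136 and 73.5 in spleen CD8+ libraries. CD4+ levels were above CD8+ levels in each organ without overlap, though CD8+ minus CD4+ was not called in kidney (-2.08 ± 0.43, adjusted p = 0.146) or spleen (-1.65 ± 0.43, adjusted p = 0.261), and the organ difference over both lineages was 0.78 ± 0.30 (adjusted p = 0.293). Arnt2, a relative of the partner subunit, had the smallest p of that list over both lineages, with 2.59 ± 0.66 (adjusted p = 0.0916). Epas1, which encodes HIF-2 alpha, had levels of 2.11 and 45.8 in kidney CD4+, 7.64 and 30.8 in kidney CD8+ and at most 4.71 in spleen libraries. The 2 libraries with the higher Epas1 levels were also those with the higher proximal tubule and distal nephron marker sums. The part of tubule RNA was not tested.

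Other HIF-induced genes outside the members were 25 in number, with glycolysis enzymes left out. Egln1, Egln3 and Cited2 were on this list and on that of the factors and sensors. Of the 25 other induced genes 16 were tested, and 0 rose and 0 fell, against 2.71% and 0.664% of all genes over both lineages. The median of their log2 fold changes was 0.40 over both lineages. Ceruloplasmin, Cp, had levels of 53.6 and 23.9 in kidney CD4+ libraries and at most 0.863 in the other 6, with a difference of 4.76 ± 1.18 in CD4+ cells (adjusted p = 0.149). Heme oxygenase 1, Hmox1, had 0 reads in both kidney CD8+ libraries, against 10.8 and 10.5 in spleen CD8+ libraries (adjusted p = 0.178). Of 16 tested glycolysis enzymes 0 rose and 0 fell, beside the same shares of all genes, with a median of -0.27. Gapdh had the smallest p of them over both lineages, at 0.67 ± 0.29 (adjusted p = 0.346). Counts at an unadjusted p under 0.05 over both lineages were 4 up and 0 down for the factors and sensors, 1 and 1 for the other induced genes and 1 and 0 for glycolysis, against 14.2% of all genes in either direction.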

How the data were processed

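Libraries came from RNA of sorted T cells by SMART-Seq v4, per the labels' protocols. This kit keeps no strand. Reads were aligned to mm9, per the labels. The series text names STAR and Bowtie, and the submitters' processing notes name STAR 2.5.3 and TopHat2 2.1.0. No source used here gives the counting tool, annotation or normalisation. Values are the normalised signal that the authors deposited for 8 libraries in 1 table, with 0 columns unused. Each value was a whole multiple of 1 step per library (100% of values, tolerance 1e-06), so reads could be recovered.

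The deposited signal was compared as log2(level + 1) in limma 3.58.1 (R 4.3.3), with cell means of 4 groups over 8 libraries, an intensity trend and 2-sided tests, where 2 or more libraries reached a level of 10. The fold change on this scale understates that of low genes. The edgeR 4.0.16 quasi-likelihood test on the recovered reads was an alternative, and called 336 genes over both lineages. Other alternatives were the compared libraries alone, library weights, pseudocounts of 0.5 and 5, no filter, a filter on the mean, median-of-ratios and TMM rescaling, a replicate block and the omission of each library. SE are pooled over the 4 groups, the unlike kidney CD4+ pair included. Intervals use 8.48 degrees of freedom. Genes sharing reads with copies, or overlapping on opposite strands, are uncertain, Mif with its processed copies among them.

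Every member is named. Fold changes are given for called members, for the related pairs Bnip3 and Bnip3l, Pfkfb3 and Pfkfb4, and Plod1 and Plod2, for P4ha1, for members with the smallest p or the highest level, and for others where a pattern is described. Members, lists and tests were chosen with earlier results of these data known. Positions and lengths are from GENCODE vM1.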

Additional observations from a re-analysis of the deposited data

How the results depend on the processing

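Over both lineages the 5 called members remained the same 5 in 15 of the 17 alternatives, and without kidney CD4+ replicate 1 or 2 they were joined by others. Leaving out 1 library at a time gave 5 to 9 called members in that comparison, 0 to 10 in CD4+ cells, 0 to 7 in CD8+ cells, 0 to 2 for the difference between lineages, 0 to 6 within kidney and 0 to 1 within spleen. The highest counts came without kidney CD4+ replicate 1, or replicate 2 within kidney. A group left with 1 library was assumed to vary like the others. Of 4 called members in CD4+ cells, 0 were left with the compared libraries alone and 1 with library weights. Of 4 in CD8+ cells, 2 were left with edgeR. Within spleen the count of 0 became 1 with the compared libraries alone, a pseudocount of 5, median-of-ratios or TMM rescaling, and 2 with library weights. With the replicate block the count was 1 in CD4+ cells (Ndrg1), 3 in CD8+ cells and 5 over both lineages. The labels do not say that the numbers pair samples, and correlations of replicate differences between groups ran from -0.43 to 0.27. Differences called in the main fit kept their direction in each alternative run. With a level of 10 required in every spleen library, 25 in place of 28 members count as having a spleen level. Of the 25 members at an unadjusted p of 0.05 or more over both lineages, 14 changed sign under some alternative.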
